A study of Homo sapiens with 7 samples.

Results

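The unfolded protein response and the integrated stress response were followed in RH30 cells through 38 named genes. The 38 were taken by symbol from a written list of stress sensors, transcription factors, ATF4 targets, ER chaperones and ER degradation genes, and all 38 were found among the 57189 genes of the count table. RH30 cells are an established human line derived from alveolar rhabdomyosarcoma (RMS), a childhood soft tissue tumor with muscle features. BV6 is a Smac mimetic, a small molecule that imitates the mitochondrial protein Smac and leads to the loss of inhibitor of apoptosis proteins. RNAseq counts were compared between untreated cells (n = 4, replicates 1 to 4) and cells exposed to BV6 (n = 3, replicates 2 to 4) at 5 µM over 24 h. The labels give the genotype of all 7 samples as wt, while the methods of the study state that RH30 cells expressing GFP and luciferase were used throughout, so that both groups come from 1 line. The labels name no solvent control for the untreated cells. The sample titles carry a code that begins with BC, which BV6 replicates 2, 3 and 4 share with untreated replicates 2, 3 and 4, while that of untreated replicate 1 has no BV6 partner. The labels do not say what the code marks. It is called the experiment label here, the pairs are called experiments 2, 3 and 4, and the samples of the pair in experiment 4 did not deviate together (r = 0.04). The study calls the samples biological replicates without saying how the cultures were separated, so that p-values measure the spread between these samples, which may be partly technical.

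The ER folds the proteins that a cell secretes or places in its membranes. When unfolded proteins build up there, the sensors IRE1 (encoded by ERN1), PERK (EIF2AK3) and ATF6 start the unfolded protein response (UPR), in which IRE1 splices the XBP1 transcript and PERK phosphorylates the translation factor eIF2. Phosphorylated eIF2 lowers general protein synthesis and favors translation of ATF4, and since kinases other than PERK (GCN2, PKR and HRI) do the same upon amino acid shortage, viral RNA or heme shortage, this arm is called the integrated stress response (ISR). ATF4 drives genes of amino acid uptake and synthesis as well as its own feedback inhibitors, whereas ATF6 and spliced XBP1 drive chaperones such as HSPA5 (BiP) and genes of ER-associated degradation. RNAseq of whole genes counts transcripts and does not read out XBP1 splicing, ATF6 cleavage, eIF2 phosphorylation or ATF4 protein.

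Both branches have known DNA elements near the start of their target genes, and these were looked for in RefSeq promoters (GRCh38.p14, 250 bases before to 50 bases after the start), which were at hand for 34 of the 38 genes (not for NUPR1, SHMT2, SLC7A11 and PDIA3). The core of the C/EBP-ATF response element to which ATF4 binds, TGATGNAA on either strand, was in a promoter of 5 of the 34 genes (ASNS, CEBPG, CHAC1, HERPUD1 and SLC3A2) and in 3.617% of all 35116 promoters. The ER stress response element (ERSE) of ATF6 and XBP1, CCAAT and CCACG with 9 bases between them on either strand, was in a promoter of 7 of the 34 genes (CALR, CANX, CRELD2, HSP90B1, HSPA5, PDIA6 and XBP1) and in 0.077% of all promoters. The UPR element TGACGTGG was in a promoter of 1 of the 34 genes, HYOU1, and in 0.729% of all promoters. A gene was counted if any of its promoters held the element, while the shares are of single promoters. Some genes, such as CANX, have more than 1 promoter, so that the counts and shares are in unlike units. A window of 30 bases is shown for 4 genes with the first element and 4 with the second, in the direction of transcription, with the element in capitals. They were chosen because ASNS and CEBPG are among the genes whose groups did not overlap, and HSPA5 and XBP1 are the usual reporters of the UPR. The windows of ASNS (chr7:97872458-97872487, minus strand), CEBPG (chr19:33374060-33374089, plus), CHAC1 (chr15:40953251-40953280, plus) and HERPUD1 (chr16:56931955-56931984, plus) hold the ATF4 element, which in CHAC1 and HERPUD1 lies on the other strand and is seen in capitals as its reverse complement.
ASNS: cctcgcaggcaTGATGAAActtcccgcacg
CEBPG: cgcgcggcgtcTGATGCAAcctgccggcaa
CHAC1: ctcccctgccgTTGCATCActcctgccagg
HERPUD1: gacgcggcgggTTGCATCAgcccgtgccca
The windows of HSPA5 (chr9:125241386-125241415, minus), XBP1 (chr22:28800598-28800627, minus), HSP90B1 (chr12:103930210-103930239, plus) and CALR (chr19:12938378-12938407, plus) hold the ERSE, which in CALR is on the other strand.
HSPA5: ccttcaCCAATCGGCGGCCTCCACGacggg
XBP1: cgctggCCAATCGCGGAGGGCCACGaccgt
HSP90B1: ccctgaCCAATCGGAAGGAGCCACGcttcg
CALR: cccacgCGTGGTCGACCATCATTGGtcggt

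Per sample, 54070030 to 77220882 counts were assigned to genes, so that 3 counts, the smallest number taken as detected, correspond to 0.0389 to 0.0557 CPM (counts divided by the TMM-normalized library size and scaled to 1000000). Muscle markers of RMS were present, with a mean of 344 CPM for MYOD1, 150.3 CPM for MYOG and 768 CPM for DES in untreated cells. The 6 markers summed to 1654 to 2249 CPM in untreated samples and to 1326, 1155 and 1897 CPM in BV6 replicates 2, 3 and 4, with a median log2 fold change of -0.45 and 5 of 6 below 0. At an unadjusted p below 0.05, 2 of the 6 were lower, CHRNA1 (-0.27) and CHRND (-0.67), both subunits of the muscle acetylcholine receptor. None was called by edgeR without the block among the genes that passed the filter on low counts. With no filter, edgeR without the block called CHRND (adjusted p = 0.0282), whose groups did not overlap. CHRND was also called by DESeq2 (adjusted p = 0.0149) and by edgeR with the experiment label as a block (adjusted p = 0.0368). DES and CHRNA1 joined CHRND in edgeR with the block and a correction for GC content (adjusted p = 0.00728 and 0.0119). The part of this difference in the results below was not tested. The 10 leukocyte markers summed to 13.2 to 15.8 CPM in untreated and 11.5 to 15.6 CPM in BV6-treated samples, most of it from NKG7 and CD68, while CD3E, CD14, LYZ and PTPRC had means below 0.5 CPM. As a check of the treatment, the NF-κB targets BIRC3 (edgeR adjusted p = 0.00341), NFKBIA (0.0116) and NFKB2 (0.0110) rose by 4.86, 2.17 and 1.67 on the log2 scale. BV6 replicate 3 stood apart in its 2587 GC-rich genes (GC content of 60% or more), whose median was 0.52 below the mean over samples on the log2 scale, where the other 6 samples lay between -0.05 and 0.38. Of the 38 genes, 6 belong to this class (ATF5, CEBPB, TRIB3, CHAC1, SLC7A5 and SDF2L1), and a correction for GC content moved the log2 fold change from 0.18 to 0.36 for ATF5, from 0.51 to 0.91 for CEBPB, from 1.24 to 1.502 for TRIB3, from 0.30 to 0.50 for CHAC1, from -0.30 to -0.16 for SLC7A5 and from -0.55 to -0.30 for SDF2L1.

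Of the 38 genes, 37 passed the filter on low counts, and NUPR1 did not. With the quasi-likelihood test of edgeR and p-values adjusted by Benjamini-Hochberg over 23124 genes, 2 of the 37 rose in BV6-treated cells at an adjusted p below 0.05, PPP1R15A and ASNS, and 0 fell, where 0.45% of all tested genes were called in either direction, 0.394% higher and 0.0562% lower. Since whole cultures were sequenced, fewer or more cells that express a gene and less or more RNA per cell cannot be told apart here or in any value below. The count was 1, PPP1R15A, without BV6 replicate 3, the library that stood apart, and 0 when BV6 replicate 2 or any 1 of the 4 untreated samples was left out. Without BV6 replicate 4 it was 2, ASNS and NUPR1, which passed the filter in that fit. With all samples, ASNS alone also passed a 2-fold change, against 0.285% of all tested genes higher and 0.0346% lower. At an unadjusted p below 0.05, 8 of the 37 were higher and 0 lower, against 4.13% and 4.26% of all tested genes. The Wald test of DESeq2 called 6 of the 37 (ERN1, CEBPG, PPP1R15A, TRIB3, ASNS and SLC7A11), all higher, against 1.15% of all tested genes. On simulated counts, drawn with the spread that edgeR estimated and without an effect of experiment or GC content, DESeq2 made 58 false calls where edgeR made 14. With the experiment label as a block together with a correction for GC content, edgeR called 11 of the 37, all higher (ERN1, ATF4, CEBPG, PPP1R15A, TRIB3, SESN2, ASNS, PHGDH, SHMT2, SLC7A11 and SLC3A2), against 3.69% of the 17928 genes with a known GC content. Untreated replicate 1, which has no BV6 partner, does not enter the difference between the groups in any fit with the block. The groups did not overlap in 7 of the 37 (ERN1, XBP1, CEBPG, PPP1R15A, TRIB3, ASNS and EDEM1), all higher with BV6, against 4.94% of all tested genes higher and 3.89% lower. The median log2 fold change was 0.14 over the 37 genes and -0.01 over all tested genes, and 26 of the 37 lay above 0, where 47.7% of all tested genes did. By role, the medians were 0.44 for the ISR transcription factors, 0.43 for feedback and stress effectors, 0.27 for amino acid genes, 0.19 for the sensors with XBP1, 0.11 for ER-associated degradation and -0.10 for the ER chaperones. These medians are descriptions and were not compared by a test. The 38 genes were chosen with earlier results of these data known, so that their counts beside the shares of all genes are descriptions too.

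**Figure D1:**
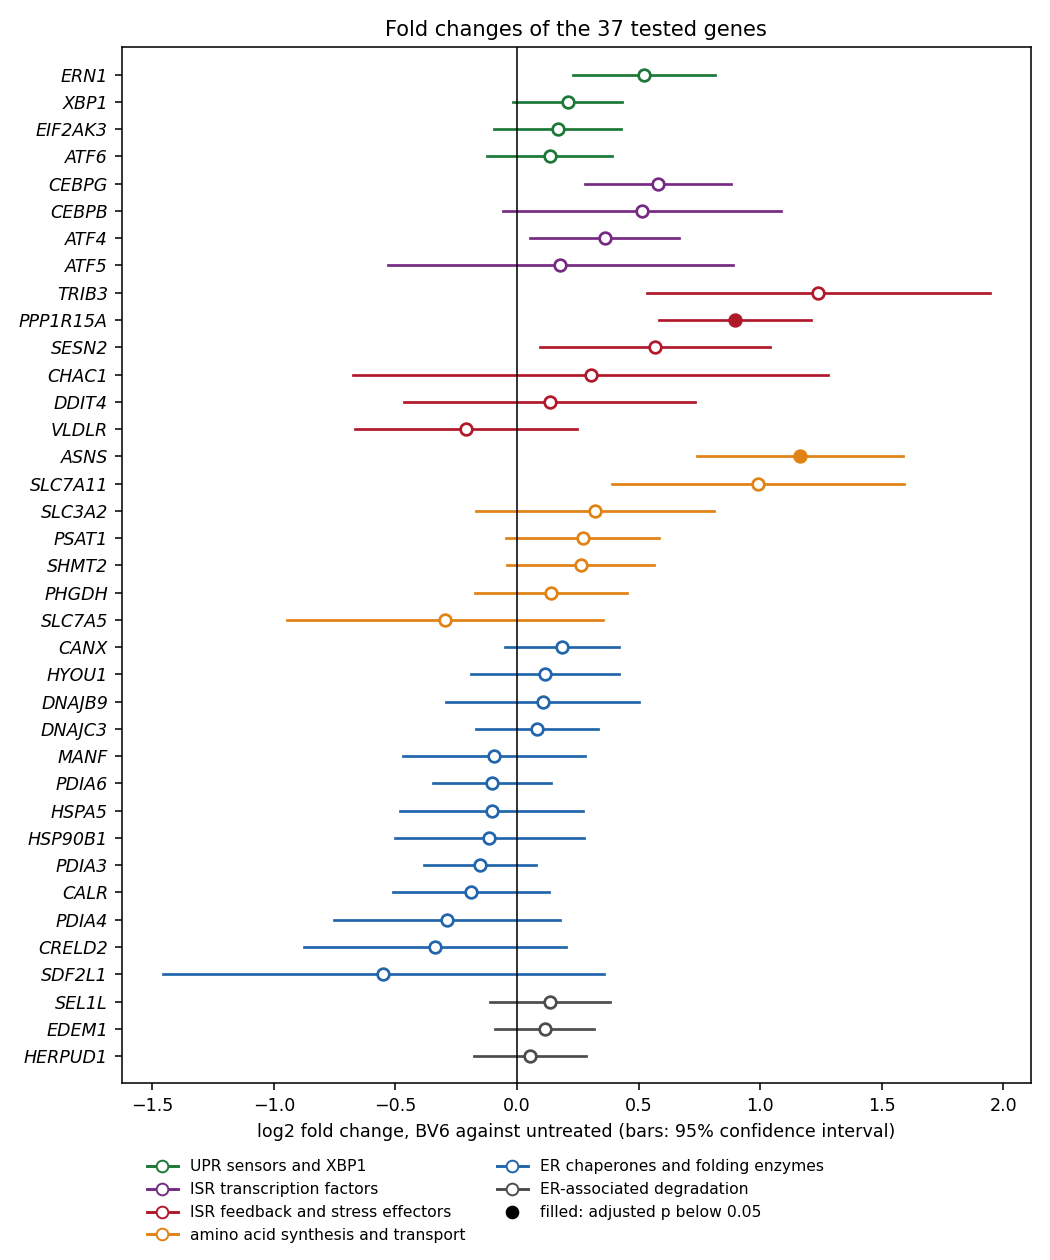
Log2 fold change of BV6-treated against untreated RH30 cells for the 37 tested genes (horizontal axis), grouped by role, each with its 95% confidence interval from edgeR. Filled points are PPP1R15A and ASNS, the 2 genes past an adjusted p of 0.05. The 4 transcription factors and 4 sensor genes all lie to the right of 0, and 9 of the 13 ER chaperones lie to the left.

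Among the sensors, ERN1 stood out, which encodes the kinase and endoribonuclease IRE1. It measured 18.2, 20.3, 18.4 and 18.1 CPM in untreated replicates 1 to 4 and 31.2, 25.6 and 23.9 CPM in BV6 replicates 2 to 4. Every BV6 sample was above every untreated sample. The log2 fold change of ERN1 was 0.52 (SE 0.13), which missed the threshold in edgeR (adjusted p = 0.195) and passed it in DESeq2 (adjusted p = 0.0219). XBP1, the transcription factor whose mRNA IRE1 splices, showed a smaller separation, with 69.8, 67.6, 73.5 and 80.2 CPM in untreated and 82.7, 82.7 and 87.0 CPM in BV6-treated samples. The log2 fold change of XBP1 was 0.21 (95% confidence interval -0.01 to 0.43, edgeR adjusted p = 0.620). The 2 other sensors overlapped between the groups. EIF2AK3, which encodes PERK, measured 34.0, 31.5, 33.0 and 39.9 CPM in untreated and 39.5, 39.1 and 37.8 CPM in BV6-treated samples, with a log2 fold change of 0.17 (edgeR adjusted p = 0.747). ATF6, the sensor that is cut in the Golgi to release a transcription factor, measured 65.1, 66.3, 75.9 and 78.1 CPM in untreated and 70.4, 84.3 and 80.1 CPM in BV6-treated samples, with a log2 fold change of 0.13 (edgeR adjusted p = 0.787). In both, the highest untreated sample was replicate 4.

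The transcription factors of the ISR all had higher means with BV6, and 0 of the 4 tested passed the adjusted threshold of edgeR, 2 had an unadjusted p below 0.05 and 1, CEBPG, was called by DESeq2. ATF4, the main factor of the ISR, measured 262, 261, 233.8 and 217 CPM in untreated replicates 1 to 4 and 369.7, 312 and 256 CPM in BV6 replicates 2 to 4. BV6 replicates 2 and 3 were above all untreated samples and BV6 replicate 4 was below untreated replicates 1 and 2. ATF4 had a log2 fold change of 0.36 (SE 0.14, unadjusted p = 0.0253 and adjusted p = 0.510 in edgeR), and its adjusted p in edgeR was 0.116 with the block and 0.00912 with the block and the GC correction. CEBPG, a C/EBP protein that pairs with ATF4 on the element shown above, measured 39.5, 39.5, 38.2 and 53.2 CPM in untreated and 64.9, 64.2 and 61.8 CPM in BV6-treated samples. The groups did not overlap, and untreated replicate 4 was nearest to the treated samples. The log2 fold change of CEBPG was 0.58 (SE 0.13), with an adjusted p of 0.153 in edgeR and 0.0226 in DESeq2. CEBPB, a second C/EBP protein induced by stress and cytokines, had means of 3.62 ± 0.867 CPM (SD, n = 4) and 5.17 ± 1.54 CPM (n = 3), and ATF5, an ATF4-like factor, 15.1 ± 4.17 and 17.0 ± 8.61 CPM, both with overlapping groups. ATF5 shares 565 exonic bases with NUP62 on the opposite strand and CEBPB 231 with CEBPB-AS1, and the use of strand in counting is not stated.

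NUPR1, a small chromatin protein that ATF4 induces under stress, was near the limit of detection in untreated cells, with 6, 4, 8 and 9 counts. BV6 replicates 2 and 3 held 70 and 55 counts and BV6 replicate 4 held 8, so that only 2 samples reached 10 counts and the gene was not tested. In CPM the values were 0.0779, 0.0713, 0.133 and 0.146 in untreated and 1.25, 0.897 and 0.149 in BV6-treated samples. The separation between the groups thus rests on BV6 replicates 2 and 3, as the value of BV6 replicate 4 was next to that of untreated replicate 4. Without any filter on low counts, NUPR1 had a log2 fold change of 2.82 (SE 0.54, edgeR adjusted p = 0.0124 over 43421 genes). It passed the filter and was called by edgeR when BV6 replicate 4 was left out.

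The clearest change among the feedback genes was that of PPP1R15A (GADD34), the stress-induced subunit of the phosphatase that removes phosphate from eIF2 and so ends the ISR (chr19:48872212-48876059 of GRCh38, plus strand, in the GENCODE annotation). It measured 51.6, 47.5, 50.7 and 44.99 CPM in untreated replicates 1 to 4 and 112, 77.3 and 82.3 CPM in BV6 replicates 2 to 4. All treated samples were above all untreated samples, with BV6 replicate 2 the highest. PPP1R15A rose 1.86-fold, from 48.7 ± 3.01 CPM (SD, n = 4) to 90.6 ± 18.9 CPM (n = 3), a log2 fold change of 0.90 (95% confidence interval 0.58 to 1.21, edgeR adjusted p = 0.0290). Leaving out any 1 untreated sample, BV6 replicate 2 or BV6 replicate 4 raised the adjusted p of edgeR to between 0.0581 and 0.106, while without BV6 replicate 3 it was 0.0178, and the log2 fold change stayed between 0.72 and 1.00. With the experiment label as a block, its adjusted p in edgeR was 0.0238.

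TRIB3, a pseudokinase that binds ATF4 and dampens it, had the largest log2 fold change of the 37 genes when all samples were used (chr20:362835-397559, plus strand). It measured 8.14, 8.07, 6.29 and 5.55 CPM in untreated and 26.4, 14.1 and 9.21 CPM in BV6-treated samples. The groups did not overlap, but the treated samples spread widely, with a coefficient of variation of 53.4%. The log2 fold change of 1.24 (SE 0.31) missed the threshold in edgeR without the block (adjusted p = 0.206) and passed it with the block (adjusted p = 0.0374), where 3 of the 37 genes were called higher against 0.649% of all tested genes. Without BV6 replicate 2, the log2 fold change of TRIB3 was 0.74, below that of ASNS in the same fit (1.10). The remaining effectors had overlapping groups. SESN2, a stress-induced inhibitor of mTORC1, had means of 8.996 ± 1.83 CPM (SD, n = 4) and 13.3 ± 3.32 CPM (n = 3), a log2 fold change of 0.57 (unadjusted p = 0.0235, adjusted p = 0.499 in edgeR). DDIT4, another mTORC1 inhibitor, had means of 21.6 ± 6.63 and 23.8 ± 6.35 CPM, and VLDLR, a lipoprotein receptor, 3.03 ± 0.340 and 2.62 ± 0.543 CPM, neither past the threshold. CHAC1, which degrades glutathione and is a sensitive ATF4 target, stayed near the detection limit, with 24, 8, 16 and 19 counts in untreated and 22, 10 and 22 counts in BV6-treated samples. These are 0.312, 0.143, 0.265 and 0.307 CPM and 0.392, 0.163 and 0.409 CPM. The groups overlapped, and the log2 fold change of 0.30 (95% confidence interval -0.67 to 1.28, edgeR adjusted p = 0.872) does not resolve a 2-fold rise of CHAC1 at this depth.

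**Figure D2:**
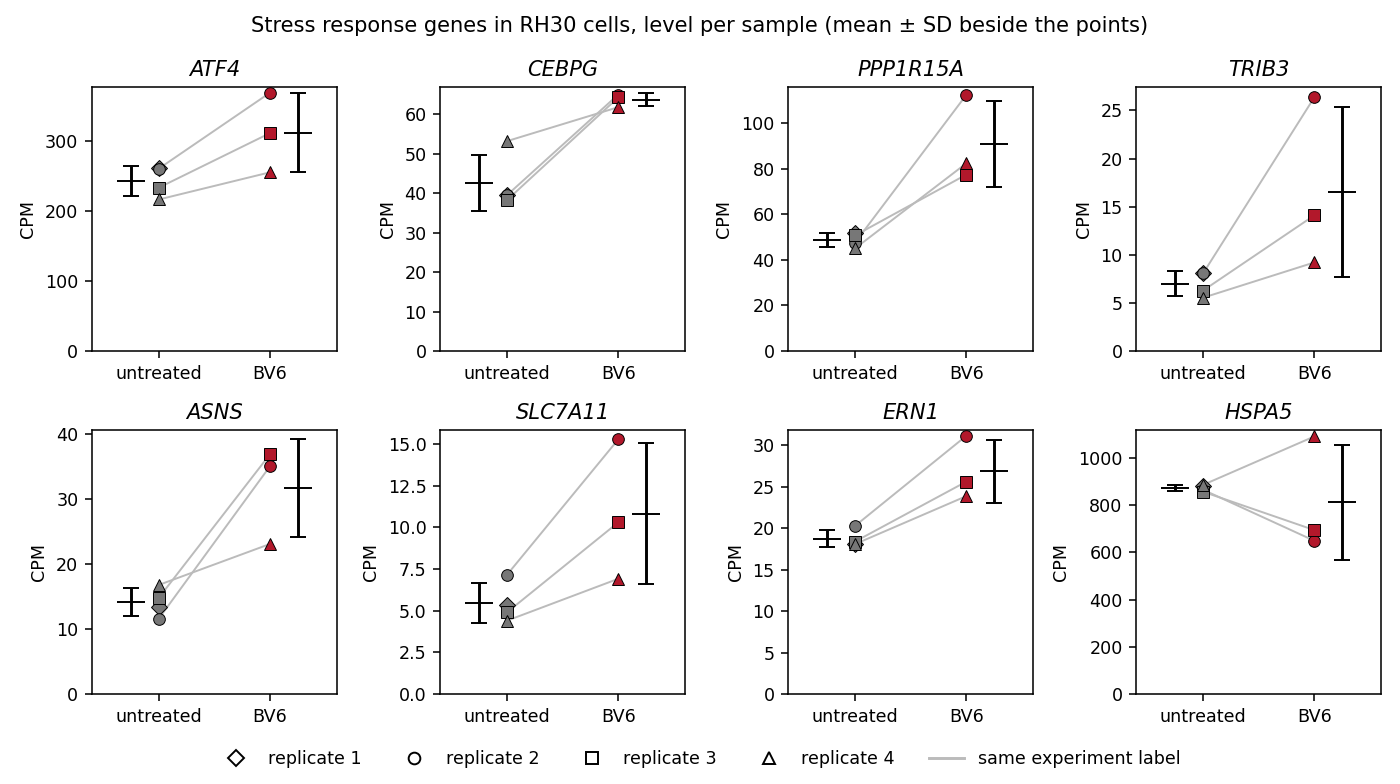
Level of 8 genes in CPM (vertical axis, from 0) in each untreated (grey) and BV6-treated (red) sample, with the mean ± SD beside the points and lines between samples that share an experiment label. PPP1R15A, TRIB3, ASNS, CEBPG and ERN1 have all 3 treated samples above all 4 untreated samples, while HSPA5 has 2 treated samples below and 1 above the untreated samples.

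ASNS, asparagine synthetase and a classic ATF4 target, was the gene of amino acid metabolism with the clearest change (chr7:97851677-97872542, minus strand). It measured 13.4, 11.6, 14.8 and 16.8 CPM in untreated replicates 1 to 4 and 35.03, 36.9 and 23.1 CPM in BV6 replicates 2 to 4. All treated samples were above all untreated samples, with BV6 replicate 4 nearest to them. ASNS rose 2.24-fold, from 14.1 ± 2.19 CPM (SD, n = 4) to 31.7 ± 7.49 CPM (n = 3), a log2 fold change of 1.16 (95% confidence interval 0.74 to 1.59, edgeR adjusted p = 0.0364). The call was lost with the experiment label as a block (adjusted p = 0.0618 in edgeR) and when any 1 untreated sample, BV6 replicate 2 or BV6 replicate 3 was left out (0.0745 to 0.142), while without BV6 replicate 4 the adjusted p was 0.0249. In the GENCODE annotation, 2415 of its exonic bases (49.3%) are shared with a lncRNA on the same strand.

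SLC7A11, the cystine importer xCT, was the other amino acid gene with a near 2-fold difference. It measured 5.32, 7.14, 4.89 and 4.40 CPM in untreated and 15.3, 10.3 and 6.91 CPM in BV6-treated samples. BV6 replicate 4 was below untreated replicate 2, so that the groups overlapped, although each treated sample was above the untreated sample of its own experiment. SLC7A11 had a log2 fold change of 0.99 (SE 0.27) with an adjusted p of 0.237 in edgeR without and 0.0374 with the block. It shares 865 exonic bases with SLC7A11-AS1 on the opposite strand. The other amino acid genes missed the threshold in edgeR without the block. Their log2 fold changes were 0.32 for SLC3A2, the heavy chain that carries SLC7A11 and SLC7A5 to the membrane, 0.27 for PSAT1 and 0.14 for PHGDH of serine synthesis, 0.26 for SHMT2 of mitochondrial one-carbon metabolism and -0.30 for SLC7A5, the importer of large neutral amino acids, with SEs of 0.13 to 0.29 and edgeR adjusted p-values from 0.658 to 0.818. In edgeR without the block, the size of these differences depended on single libraries. Without BV6 replicate 2, but with untreated replicate 2 kept, they were 0.026 for SLC3A2, 0.13 for PSAT1, 0.020 for PHGDH, 0.14 for SHMT2 and -0.69 for SLC7A5. Without BV6 replicate 3, the difference of SLC7A5 was -0.0073. Within experiments 2, 3 and 4, the log2 differences were 0.49, 0.19 and 0.36 for SLC3A2, 0.47, 0.04 and 0.18 for PHGDH, and 0.46, 0.02 and 0.29 for SHMT2. Those of PSAT1 (0.38, 0.36 and -0.04) and SLC7A5 (0.05, -0.79 and -0.11) varied in sign. With the block and the GC correction, edgeR called SLC3A2 (0.38), SHMT2 (0.31) and PHGDH (0.27) higher, at adjusted p-values of 0.0035, 0.0121 and 0.0420. SHMT2 was the most abundant of the 37 genes per length in untreated cells (445 CPM per kb of exons), followed by CALR (264), HSPA5 (133) and ATF4 (93.2), while the lowest were VLDLR (0.184) and CHAC1 (0.125).

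The ER chaperones and folding enzymes held no call. Of the 13, 0 were called in either direction in edgeR or DESeq2, 0 had an unadjusted p below 0.05 in edgeR without the block, 0 had groups that did not overlap, and 4 had a log2 fold change above 0. With the block, PDIA3 (-0.20) and PDIA4 (-0.32) were lower at unadjusted p-values of 0.0440 and 0.0349 in edgeR. Their adjusted p-values in edgeR were 0.421 and 0.388 with the block, and 0.0833 and 0.0505 with the block and the GC correction. HSPA5 (BiP), the main Hsp70 chaperone of the ER and the usual reporter of the UPR, measured 881, 864, 856 and 885 CPM in untreated and 648, 694 and 1089.7 CPM in BV6-treated samples. BV6 replicates 2 and 3 were below and BV6 replicate 4 above all untreated samples. The log2 fold change of HSPA5 was -0.10 (95% confidence interval -0.48 to 0.27, edgeR adjusted p = 0.885), which turned to 0.04 without BV6 replicate 2 and to 0.00048 without BV6 replicate 3. The same split was seen in the summed level of the 13 genes, which was 4408 to 4825 CPM in untreated samples and 3919, 3933 and 5220.5 CPM in BV6 replicates 2, 3 and 4. The median of their log2 fold changes went from -0.10 to 0.04 without BV6 replicate 2, to -0.04 without BV6 replicate 3 and to -0.30 without BV6 replicate 4.

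HSPA5 was the steadiest of the 37 genes in untreated cells and one of the more variable ones after BV6, as its coefficient of variation was 1.58% and 29.95%. For CALR, the lectin chaperone of the ER lumen, these values were 2.25% and 23.6%, with means of 739 ± 16.6 CPM (SD, n = 4) and 648 ± 152.5 CPM (n = 3). HSP90B1 (GRP94, the Hsp90 of the ER) had means of 840.2 ± 101 and 776 ± 205.6 CPM. The disulfide isomerases PDIA3, PDIA4 and PDIA6 had log2 fold changes of -0.15, -0.29 and -0.10 (SE 0.10, 0.21 and 0.11), and MANF, a secreted ER stress protein, -0.10 (SE 0.17). For PDIA6, 1033 exonic bases are shared with ATP6V1C2 on the opposite strand. SDF2L1, a cofactor of the ER Hsp70 system, had the lowest log2 fold change of the 37 genes, at -0.55 (95% confidence interval -1.46 to 0.36, edgeR adjusted p = 0.759), with 12.7 to 27.6 CPM in untreated and 5.22 to 19.8 CPM in BV6-treated samples. Its lowest value was in BV6 replicate 3. SDF2L1 has a GC content of 65.8%, and its log2 fold change was -0.30 with a correction for GC content. CRELD2, a disulfide isomerase-like protein, followed with -0.34 (SE 0.24). Without BV6 replicate 3, the log2 fold changes of SDF2L1, CRELD2 and PDIA4 were -0.17, -0.073 and -0.097. The 4 chaperones above 0 were CANX, the membrane-bound lectin chaperone (0.18), HYOU1, the ER Hsp110 (0.11), and the J proteins DNAJB9 (0.11) and DNAJC3 (0.08), with SEs of 0.10 to 0.18. Of the ER-associated degradation genes, EDEM1, which hands misfolded glycoproteins to degradation, measured 65.5, 64.8, 63.2 and 67.4 CPM in untreated and 68.1, 71.8 and 71.8 CPM in BV6-treated samples. The groups did not overlap, but the difference was small, with a log2 fold change of 0.11 (edgeR adjusted p = 0.775). SEL1L and HERPUD1, both parts of the HRD1 ubiquitin ligase complex, had log2 fold changes of 0.14 (SE 0.11) and 0.06 (SE 0.10).

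Differences between samples of the same experiment label separated the roles further. The sensor, transcription factor, feedback and amino acid genes (21 tested) lay above 0 in all 3 experiments in 14 cases and below 0 in all 3 in 1 case, VLDLR, whereas of all 22988 genes with a value in each experiment 15.5% lay above 0 in all 3. In 21 of these 21 genes the difference was larger in experiment 2 than in experiment 4, against 51.2% of all genes. For ATF4 the log2 differences in CPM were 0.50, 0.42 and 0.24 in experiments 2, 3 and 4, for PPP1R15A 1.24, 0.61 and 0.87, for ASNS 1.59, 1.32 and 0.46, and for TRIB3 1.71, 1.17 and 0.73. The 16 genes of ER folding and degradation showed the opposite order, as the difference was larger in experiment 2 in 1 of 16. Of the 13 chaperones, 2 lay above 0 in experiment 2, 3 in experiment 3 and 11 in experiment 4, with medians of -0.30, -0.18 and 0.05. Over all GC-rich genes, the medians in experiments 2, 3 and 4 were -0.13, -0.70 and 0.23, and the part of this pattern in the differences between experiments was not tested. These counts are descriptions of 3 pairs of libraries in which genes are not independent, and no test was made. The contrast of experiments 2 and 4 was not planned. The samples of experiment 4 did not deviate together (r = 0.04), so that its differences may not be those of a true pair.

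**Figure D3:**
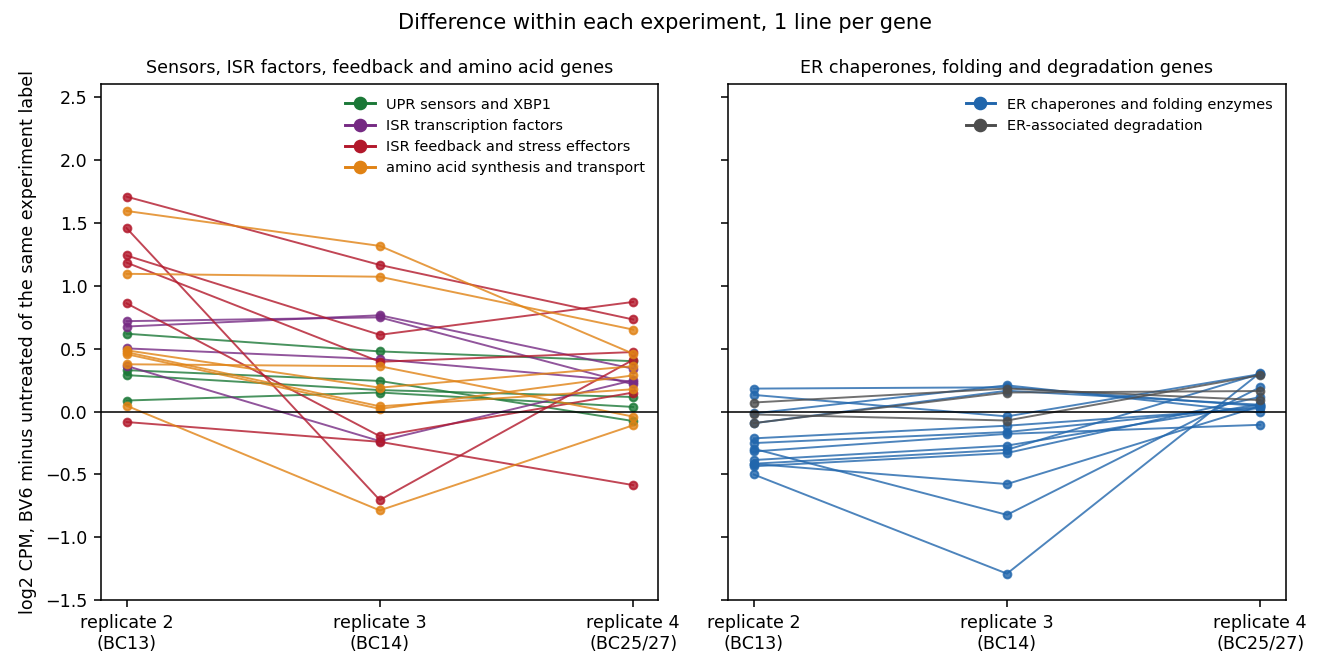
Difference in log2 CPM between the BV6-treated and the untreated sample that share an experiment label (vertical axis), for each of the 3 experiments (horizontal axis), 1 line per gene. On the left, sensors, ISR factors, feedback and amino acid genes (21) are mostly above 0 and higher in replicate 2 than in replicate 4. On the right, 15 of the 16 ER folding and degradation genes are higher in replicate 4 than in replicate 2.

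The values of the genes that hold the DNA elements shown at the start are given as a description, with no test. The median log2 fold change was 0.32 over the 5 genes with the ATF4 element (0.06 for HERPUD1 to 1.16 for ASNS), against 0.13 for the 29 genes with a promoter but no such element. The 7 genes with the ERSE had a median of -0.10 (-0.34 for CRELD2 to 0.21 for XBP1), and XBP1 and CANX were the 2 above 0, against a median of 0.14 for the other 27. All of the 7 but XBP1 are among the 13 ER chaperones, and HSPA5 gives the median of both sets. The 2 medians are thus not separate results. PPP1R15A, TRIB3 and ERN1 had neither element in the searched 300 bases.

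Other genes of the pathway were read from written lists of 111 genes, 107 of which were tested. The lists were chosen with earlier results of these data known, so that counts beside the shares of all genes are descriptions. Of these 107, 1 rose and 0 fell at an adjusted p below 0.05 in edgeR, against 0.394% and 0.0562% of all tested genes. At an unadjusted p below 0.05, 11 were higher and 1 lower, against 4.13% and 4.26% of all tested genes, and DESeq2 called 3 (DDIT3, WARS and SARS), all higher, against 1.15%. With the block and the GC correction, edgeR called 10 (DDIT3, ATF3, AARS, WARS, SLC1A4, CTH, GDF15, VEGFA, NARS and HSPA1B). In that fit, 7.69% of the 17928 genes with a known GC content were called in either direction. The 1 gene that rose at an adjusted p below 0.05 in edgeR without the block and with the filter was WARS, the tryptophanyl-tRNA synthetase, which ATF4 and interferon-γ both can induce. It measured 100.6, 114, 99.3 and 114 CPM in untreated and 236, 194 and 167 CPM in BV6-treated samples. All treated samples were above all untreated samples, and WARS rose by 0.89 on the log2 scale (SE 0.13, edgeR adjusted p = 0.0220). The call was lost without untreated replicate 1, 3 or 4 or BV6 replicate 2 (adjusted p of 0.0580 to 0.0964 in edgeR). WARS belongs to a list of 26 further ATF4 targets, of which 22 were tested. Their median log2 fold change was 0.29, 8 were higher and 0 lower at an unadjusted p below 0.05, where 4.13% and 4.26% of all tested genes were. In 6 of the 22 the groups did not overlap, all higher with BV6, against 4.94% of all tested genes. The 6 aminoacyl-tRNA synthetases among them, which charge tRNAs with amino acids, were looked at together after their values were seen. They summed to 739 to 866 CPM in untreated and to 1244, 1176 and 1015 CPM in BV6 replicates 2, 3 and 4, and SARS, the seryl-tRNA synthetase, just missed the threshold with a log2 fold change of 0.55 (edgeR adjusted p = 0.0519).

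DDIT3 (CHOP), the factor that links lasting ER stress to cell death, measured 87.8, 59.1, 125.6 and 94.3 CPM in untreated and 141, 172 and 189 CPM in BV6-treated samples. The groups did not overlap, with untreated replicate 3 nearest to the treated samples. DDIT3 had a log2 fold change of 0.87 (SE 0.22), with an adjusted p of 0.201 in edgeR without and 0.0431 with the block. ATF3, a factor induced by ATF4 and by many other signals, had means of 39.7 ± 14.6 CPM (SD, n = 4) and 54.4 ± 9.74 CPM (n = 3) with overlapping groups. Its adjusted p in edgeR was 0.679 without the block and 0.0337 with the block and the GC correction.

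Outside the ATF4 targets, edgeR without the block and DESeq2 called none of the listed pathway genes, and edgeR with the block and the GC correction called 1, the heat shock gene HSPA1B. The eIF2 kinases, eIF2 and eIF2B subunits (12 genes) gave a median log2 fold change of 0.12, and the largest was 0.28 for EIF2S2, the beta subunit of eIF2 (unadjusted p = 0.0467, adjusted p = 0.589 in edgeR). The medians were 0.01 for 35 further ER folding and secretory genes and 0.0045 for 17 further ER-associated degradation genes, in each of which 1 gene was higher at an unadjusted p below 0.05, with 1 lower in the second list, DERL3. Their largest differences were WFS1, an ER membrane protein, at -0.29 (-0.042 without BV6 replicate 3), and DERL3, an ER membrane protein of the degradation pathway, which was low throughout (0.504 and 0.278 CPM) at -0.86 (edgeR adjusted p = 0.529). The groups did not overlap in 2 higher and 2 lower of the 35 genes, and in 3 higher and 1 lower, DERL3, of the 17. Over all tested genes these shares were 4.94% higher and 3.89% lower. The cytosolic heat shock genes, which respond to unfolded proteins outside the ER, had a median of -0.19 with 10 of 12 below 0. The lowest was HSPB1 at -0.58 (edgeR adjusted p = 0.744), which was lowest in BV6 replicate 3 and lay at -0.19 without that sample. HSPA1B, an inducible Hsp70 that was named after its values were seen, had a log2 fold change of -0.52 (adjusted p = 0.700 in edgeR without and 0.463 with the block) with overlapping groups, and the call with the block and the GC correction (-0.33, adjusted p = 0.0478 in edgeR) was the single one among the 12. HSPA1B has a near-identical copy, HSPA1A, so that the split of reads between them is uncertain. In edgeR without the block, with the filter on low counts and all samples, neither the heat shock genes nor 9 mitochondrial chaperones and proteases held a gene with an unadjusted p below 0.05. With no filter, HSPA1B had an unadjusted p of 0.0320 in edgeR. Among the 9 mitochondrial chaperones and proteases the median was 0.02, and CLPP, a matrix protease, lay lowest at -0.45 and at -0.19 without BV6 replicate 3.

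**Figure D4:**
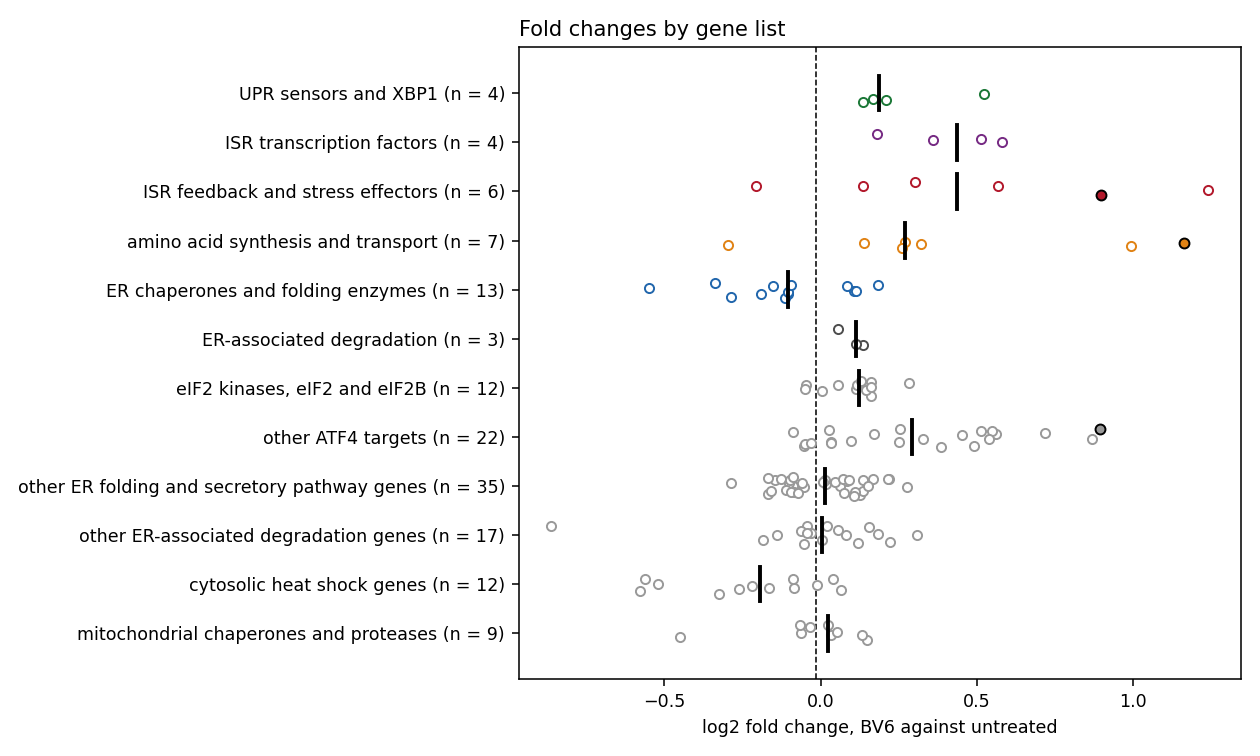
Log2 fold change of BV6-treated against untreated cells (horizontal axis) for each tested gene of the 6 roles and of 6 further lists, with the median of each list as a vertical bar and the median of all tested genes (-0.01) as a dashed line. Filled points passed an adjusted p of 0.05 (PPP1R15A, ASNS and WARS). The medians of the ISR factors, feedback genes and other ATF4 targets lie to the right of the dashed line, and those of the ER chaperones and cytosolic heat shock genes to the left.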

How the data were processed

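The data are RNAseq counts of 7 RH30 samples, 4 untreated and 3 treated with BV6. Per the labels and the methods of the study, the authors prepared stranded poly(A)-selected libraries, sequenced them in paired-end mode and mapped the reads to GRCh38 with STAR (version 2.6.1d, also in the submitters' processing notes). They counted reads per gene over a union of the isoforms of each Ensembl gene, and deposited the raw counts of 57189 genes without normalization. The counting program and its use of strand are not given in the sources used here. No comparison columns of the authors were used.

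From these counts, genes were filtered with filterByExpr (minimum count 10), normalized by TMM and tested in R 4.3.3 with edgeR 4.0.16 (glmQLFit, glmQLFTest), with condition as the only term and all 7 samples in 1 fit, since the methods of the study state no design formula. P-values were adjusted by Benjamini-Hochberg over the 23124 genes that passed. A gene was called at an adjusted p below 0.05. CPM refer to the TMM-normalized library size, and levels were compared between genes only per kb of exon union from GENCODE release v44. The gene symbols were matched to that release, 36327 by symbol and 849 by an older symbol, and all 38 genes and their GC content were found. The steps were tested on simulated counts without an effect of experiment or GC content, drawn with the spread that edgeR estimated from these data. The block and the GC correction thus had no such effect to remove. Of 100 genes simulated with a 2-fold change, edgeR recovered 68, edgeR with the block 53 and DESeq2 81. False calls numbered 14, 10 and 58, so that genes called by DESeq2 alone are less certain. With the block and the GC correction, edgeR recovered 47 of 82 genes with a 2-fold change and made 7 false calls.

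Groups came from the treatment label. The pairing came from the experiment label in the titles, whose meaning the labels do not spell out. Deviations from the group means (log2(CPM + 1)) correlated between samples of the same label with r = 0.68, 0.65 and 0.04 in experiments 2, 3 and 4, and with -0.66 to 0.48 between samples of different labels, so that the third pair is not seen as a pair in the data. The 38 genes and the gene lists were chosen with earlier results of these data known. Values in every sample are given for genes called in either fit, genes whose groups do not overlap, the sensors, main factors and usual reporters, and the 5 largest fold changes. Alternatives were DESeq2 1.42.0, RLE factors, no filter, at least 10 counts in every sample, the replicate block, the block with a GC correction (loess, span 0.5, 17928 genes) and leaving out each sample. Fits on genes with a known GC content without the block, uncorrected and corrected, were added after the data had been seen. With 4 against 3 samples, an exact two-sided permutation test cannot go below p = 0.0571, so that no such test was made for single values. Promoter sequences are those of RefSeq, GRCh38.p14.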

Additional observations from a re-analysis of the deposited data

Results flagged for a closer look

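Among 47 genes examined in the 4 untreated samples, 5 had 1 sample far from the other 3 (a gap to the nearest sample that, divided by the range, exceeds Dixon's 95% critical value for 4 samples). Chance flags about 1 in 20 groups. For ERN1 the ratio was 0.860, with untreated replicate 2 the highest at 20.3 CPM, which was still below the lowest BV6-treated sample at 23.9 CPM. For CEBPG it was 0.914, with untreated replicate 4 at 53.2 CPM above 38.2 to 39.5 CPM in the other samples. For PHGDH it was 0.929, with untreated replicate 1 at 227 CPM above 174 to 178 CPM. For SHMT2 it was 0.984, with untreated replicate 3 at 1900.3 CPM below 2090.3 to 2093.4 CPM. For WFS1 it was 0.848, with untreated replicate 1 at 19.8 CPM above 12.2 to 13.3 CPM. Untreated replicate 1 was also the sample with the highest median in GC-rich genes (0.38 above the mean over samples on the log2 scale), and its part in the values of PHGDH and WFS1 was not tested.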

How the results depend on the processing

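The number of the 38 genes called was 2 with RLE factors, with at least 10 counts in every sample and in both added fits on genes with a known GC content, 3 with the replicate block, 4 with no filter on low counts, 6 with DESeq2 and 11 with the replicate block and GC correction, and it was 0 to 2 when 1 sample was left out. With a 2-fold change it was 1, but 2 with DESeq2, with the block and GC correction and with the GC correction alone, 3 with no filter and 0 to 2 with 1 sample left out. Over all genes 104 were called, and 447 with DESeq2, 242 with no filter, 218 with the block, 1378 with the block and GC correction, 221 with the GC correction alone and 38 to 89 with 1 sample left out. Of the further pathway genes 1 was called, and 3 with DESeq2, 3 with no filter, 2 with at least 10 counts in every sample, 2 with the block, 10 with the block and GC correction, 2 with the GC correction alone and 0 to 1 with 1 sample left out. The median log2 fold change of the tested genes stayed above 0, at 0.14, at 0.11 with the GC correction alone and at 0.11 to 0.20 with 1 sample left out.

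Of the single genes, the sign changed only when 1 sample was left out, where the log2 fold change ranged from -0.30 to 0.44 for ATF5, -0.083 to 0.31 for DDIT4, -0.38 to 0.038 for HSPA5, -0.34 to 0.052 for HSP90B1, -0.0095 to 0.24 for DNAJB9, -0.037 to 0.25 for HYOU1, -0.30 to 0.045 for MANF and -0.028 to 0.11 for HERPUD1. Counting each gene under each alternative, with the muscle markers left out, 635 values kept direction and call, 24 gained and 17 lost the call, and 10 changed sign. The replicate block alone gained the calls of TRIB3, SLC7A11, DDIT3 and the muscle marker CHRND, lost that of ASNS and changed no other call of the named genes. Fits with 1 sample left out have fewer samples. Beyond that, the cause was not tested. At this depth, NUPR1 and CHAC1 lie close to the limit of detection.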
